A study of Mus musculus with 9 samples.

Results

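Mouse chromosome 19 is a short, gene-rich autosome examined here for contacts of the Dbp locus, itself on chromosome 7, in embryonic fibroblasts. Dbp encodes a bZIP transcription factor of the circadian output and is switched on through E-boxes in its sequence by the heterodimer of BMAL1 and CLOCK, the activators of the core clock. Chromosomes occupy territories in the nucleus, and a locus can lie beside loci of other chromosomes. Mouse autosomes carry the centromere at one end, so the first bases with unique sequence lie next to pericentromeric repeats. Circular chromosome conformation capture read on a microarray (4C) reports such neighbours: chromatin is crosslinked, cut and ligated, and fragments joined to the chosen locus are amplified from it.

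The members are all probes of the arrays that the files place on chromosome 19, 9246 of 384942, from position 3103127 to 61321157. They were selected by chromosome alone. The coordinates are those of the files, whose build no source used here names, so no gene is named by position. A probe of 59 nt lies every 4969 bp at the median. A probe was called high on an array when its log2 ratio of 4C DNA over genomic DNA exceeded that array's own 95th percentile over the 365587 probes off chromosome 7. This marks 4.79% to 5.00% of those probes on each array, and the share of high probes in a region is therefore a measure that does not depend on the scale of the array.

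The 9 arrays fell into 7 groups, all of mouse embryonic fibroblasts given dexamethasone for 2 h, which sets their clocks to one phase. Wild-type (WT) line 1 was taken at circadian time (CT) 22, 26, 30, 34 and 46 h, counted from the hormone. A Bmal1-/- line, which lacks the BMAL1 activator, was taken at CT22 and CT34. WT line 2 was taken at CT22 and CT34 and serves as the independent WT culture, though its array names carry 24 and 36. The Bmal1-/- embryos were siblings of those behind line 1, and both lines shared a medium with newborn calf serum, while line 2 came from another mating and was grown in fetal bovine serum only. Each genotype other than WT is 1 line, and each time point of a line is 1 array. WT CT22 and WT CT34 had n = 2, 1 array per line, and the other groups had n = 1. A mean ± SD over line 1 runs over its 5 circadian times, and one over Bmal1-/- or line 2 runs over 2 times. Such an SD mixes time with array error.

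Some arrays stood apart. Log2 ratios were narrow in line 2, whose SD over all probes was 0.391 and 0.411, against 0.825 to 0.929 for line 1 and 0.920 and 1.10 for the Bmal1-/- arrays. The threshold for a high probe was 1.64 to 2.07 for line 1, 2.16 and 2.73 for the Bmal1-/- arrays and 0.51 and 0.52 for line 2. Over single probes of chromosome 19, line 1 at CT34 correlated with Bmal1-/- at CT22 (r = 0.547) and at CT34 (r = 0.526) more closely than with any other line 1 array (r = 0.290 to 0.333), and more closely than the Bmal1-/- arrays did with each other (r = 0.443). Pairs within line 1 had r between 0.290 and 0.338, the pair of line 2 had r = 0.491, and pairs of line 1 with line 2 had r from 0.0354 to 0.0984. The reason was not tested, and neither was whether the label of this array is right. Every genotype value that takes line 1 at CT34 as WT, and every change from CT22 to CT34 in WT, rests on that label, so the differences of the whole chromosome and the counts of windows are also given without it. Without line 1 at CT34, the line 1 mean share of high probes on chromosome 19 was 8.84% in place of 8.70%, and the share in the first 5 Mb over that in the remainder was 3.43 in place of 3.38.

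Chromosome 19 as a whole held more high probes than the genome off chromosome 7. The shares in line 1 were 8.94%, 9.25%, 9.02%, 8.17% and 8.14% at CT22, 26, 30, 34 and 46, a mean of 8.70% ± 0.51 (SD, n = 5). They were 7.98% at CT22 and 8.21% at CT34 in Bmal1-/-, and 5.55% and 5.97% in line 2. Both line 2 values lay below the other 7. The higher Bmal1-/- value lay within the range of line 1 and the lower one just under it. The 95% interval (exact, Clopper-Pearson), a measure of counting error alone, ran from 8.37% to 9.54% for line 1 at CT22 and from 5.09% to 6.03% for line 2 at CT22. Low line 2 shares were not particular to chromosome 19. Line 2 was also lowest on chromosomes 10, 15, 17 and 11, with 6.05% and 5.91% on the last against 7.20% to 8.38%. On chromosome 4 it was highest, with 5.02% and 5.12% against 3.77% to 4.14%. By share, among the chromosomes numbered 1 to 20 in the files and without 7, chromosome 19 ranked 1st on 8 arrays. On line 2 at CT22 it ranked 2nd, after chromosome 11 with 6.05%. By mean log2 ratio chromosome 19 ranked 1st on both Bmal1-/- arrays and 2nd, after chromosome 11, on every array of line 1 and line 2. On Bmal1-/- at CT34 it was nearly level with chromosome 11, 0.4856 against 0.4853.

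The excess came from a subset of probes and not from a shift of the whole chromosome. The median log2 ratio of its probes lay between -0.02 and 0.03 on all 9 arrays, and that of the probes off chromosome 7 between -0.02 and 0. The mean ran from 0.209 to 0.287 over the line 1 arrays. It was 0.342 and 0.486 on the Bmal1-/- arrays and 0.0457 and 0.0459 on those of line 2. The mean of the probes off chromosome 7 also lay above their median. It ran from 0.104 to 0.171 over line 1 and was 0.205 and 0.295 in Bmal1-/- and 0.0258 and 0.0223 in line 2. The typical probe of chromosome 19 was thus at the level of the background, while the upper tail was longer than off chromosome 7. The relative excess of chromosome 19 over the probes off chromosome 7 was 1.75 ± 0.11 (SD, n = 5) in line 1 at the 95th percentile, and 1.55 ± 0.07 at the 90th and 1.82 ± 0.19 at the 99th. At the 99th percentile it was 1.94 ± 0.15 in Bmal1-/- and 1.58 ± 0.19 in line 2 (SD, n = 2 each), where the values at the 95th were 1.62 ± 0.03 and 1.20 ± 0.06.

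**Figure D1:**
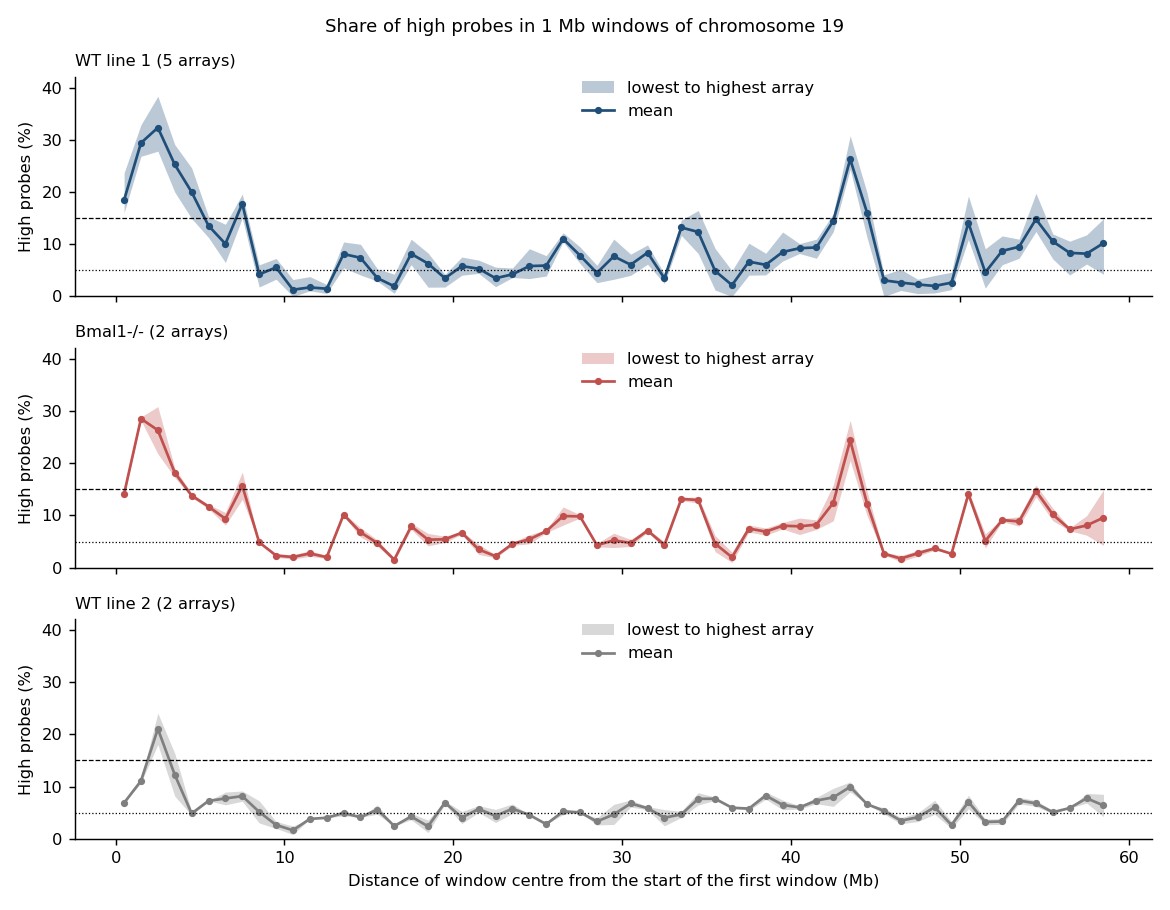
Share of high probes (percent) in 59 windows of 1 Mb along chromosome 19, against the distance of the window centre from the start of the first window (Mb), for line 1, Bmal1-/- and line 2. Lines are means, bands run from the lowest to the highest array, and the dashed and dotted lines mark 15% and 5%. The first 5 Mb and a peak 43.5 Mb from the start stand out in line 1 and Bmal1-/-, and in line 2 the window 2.5 Mb from the start is the one over 15% on both arrays.

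The high probes were concentrated at the centromere-proximal end. The first 5 Mb, up to position 8000000, held 657 probes, 7.11% of those on the chromosome, but 20.6% ± 0.69 of its high probes over the line 1 arrays (SD, n = 5), 18.0% ± 0.87 in Bmal1-/- and 13.8% ± 1.54 in line 2 (SD, n = 2 each). In line 1, 25.9%, 28.0%, 25.9%, 22.5% and 23.7% of the probes of this end were high at CT22, 26, 30, 34 and 46. In Bmal1-/- 19.5% were high at CT22 and 21.5% at CT34, and in line 2 the shares were 9.89% and 12.5%. At this threshold no value of one line fell within the range of another, and line 1 was the highest and line 2 the lowest. Chromosome 11 gave the same order over its own first 5 Mb. Its shares were 14.2% to 15.5% (line 1), 12.2% and 13.3% (Bmal1-/-), then 8.57% and 8.03% (line 2). At the 99th percentile the relative excess of this end of chromosome 19 had overlapping spreads. It was 6.06 ± 0.97 (line 1), 5.52 ± 1.51 (Bmal1-/-) and 4.75 ± 1.75 (line 2). By mean log2 ratio Bmal1-/- at CT34 (1.33) lay above the line 1 arrays (0.898 to 1.07), and at CT22 (0.901) among them.

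The remainder of the chromosome, 8589 probes, lay only modestly above the background. Its share of high probes was 7.65%, 7.81%, 7.73%, 7.07% and 6.95% in line 1 in the order of time, 7.10% and 7.20% in Bmal1-/-, and 5.22% and 5.47% in line 2. Here the Bmal1-/- arrays lay inside the range of line 1. The first 5 Mb over the remainder gave a ratio of 3.38 ± 0.14 in line 1 (SD, n = 5), 2.74 and 2.98 in Bmal1-/-, and 1.90 and 2.28 in line 2. The median probe of this end was also raised, to 0.41 ± 0.12 on the log2 scale in line 1 (SD, n = 5) and 0.66 ± 0.45 in Bmal1-/- (SD, n = 2), where CT22 had 0.34 and CT34 had 0.98. It was 0.05 on both line 2 arrays. At this end, unlike on the chromosome as a whole, more than the upper tail of line 1 was raised.

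**Figure D2:**
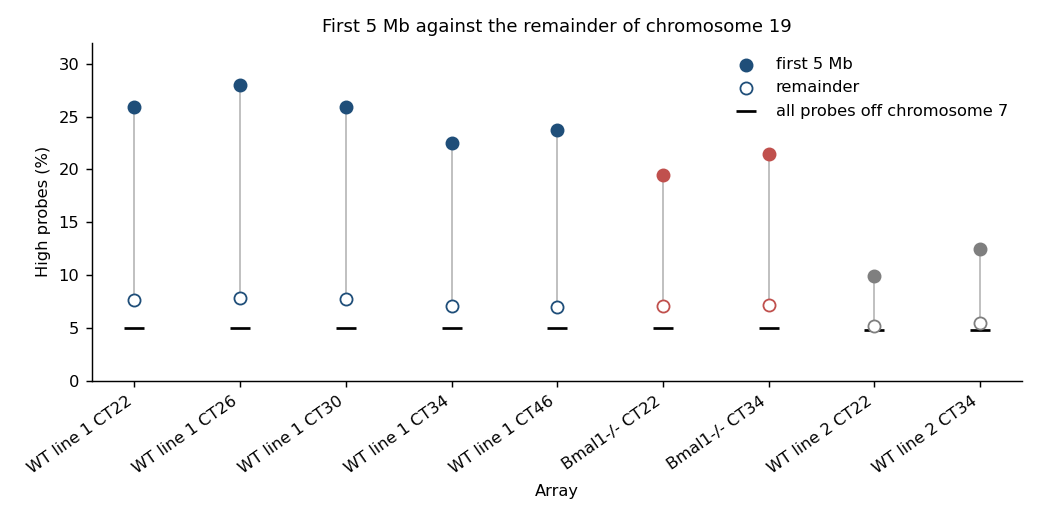
Share of high probes (percent) on each of the 9 arrays in the first 5 Mb (filled points) and the remainder (open points) of chromosome 19, with the share over all probes off chromosome 7 (dashes). The filled points lie at 22.5% or above in line 1, at 19.5% and 21.5% in Bmal1-/- and at 9.89% and 12.5% in line 2, and every open point is under 8%.

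The same end of other autosomes was lower. Measured from the first probe of each chromosome, the first 5 Mb of chromosome 19 held 24.8% ± 2.03 high probes in line 1, against 14.9% ± 0.52 on chromosome 11, the next, and a median of 4.85% over 18 autosomes without chromosome 7. It ranked 1st on all 9 arrays. The last 5 Mb of chromosome 19 held 10.4% ± 0.77 in line 1, 10.1% ± 1.27 in Bmal1-/- and 6.40% ± 0.42 in line 2, and ranked 4th, 3rd and 5th of the 18 last ends. These ranks are descriptions with no test.

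In windows of 1 Mb, 6 of the 59 on chromosome 19 had at least 15% high probes on all 5 line 1 arrays, where 15% is 3 times the expected share. Off chromosome 7, 32 of 2399 windows did so, or 1.33%. They are the first window with probes and those that start at 4000001, 5000001, 6000001, 10000001 and 46000001, so that 4 lie among the 5 windows of the first 5 Mb and 2 among the 54 beyond. The window from 7000001 passed on 4 of the 5 arrays and missed narrowly at CT22, with 14.9%.

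The window from 5000001 to 6000000 was the strongest. Its 133 probes were high in 38.3%, 33.8%, 32.3%, 29.3% and 27.8% at CT22, 26, 30, 34 and 46 in line 1, in 21.8% and 30.8% at CT22 and CT34 in Bmal1-/-, and in 18.0% and 24.1% in line 2. The line 1 mean of 32.3% ± 4.12 (SD, n = 5) ranked 1st of all 2399 windows off chromosome 7, and this was the only window of chromosome 19 with at least 15% on all 9 arrays, which 0.0834% of windows off chromosome 7 had. Its mean log2 ratio ran from 1.10 to 1.33 over the line 1 arrays. It was 1.07 and 1.71 on the Bmal1-/- arrays and 0.24 and 0.31 in line 2.

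The window from 4000001 to 5000000 ranked 2nd off chromosome 7. Its shares in line 1 were 29.5%, 28.9%, 28.9%, 26.8% and 32.9% in the order of time, those in Bmal1-/- were 28.2% and 28.9%, and those in line 2 were 10.7% and 11.4%. Here Bmal1-/- and line 1 overlapped, and line 2 was lower by more than the whole range of the other 7 arrays. The named high windows were chosen on the line 1 arrays, so lower values of another line in them are no comparison of the lines. From 6000001 to 7000000 the shares were 29.1%, 29.1%, 27.3%, 20.9% and 20.0% in line 1, 19.1% and 17.3% on the Bmal1-/- arrays and 8.18% and 16.4% in line 2. The first window with probes had 17.6%, 23.7%, 16.8%, 16.0% and 18.3% in line 1, 13.7% and 14.5% in Bmal1-/- and 6.87% on both line 2 arrays. The profile of line 1 thus rose from the first window to the third and fell again, with 20.0% ± 4.13 from 7000001 and 13.5% ± 1.55 from 8000001.

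At 250 kb the same end was uneven. Of 231 windows with at least 20 probes on chromosome 19, 19 had at least 15% high probes on all 5 line 1 arrays, against 122 of 9398 off chromosome 7, or 1.3%. The first 5 Mb held 12 of the 19, among 18 windows there, and the other 7 were among 213. The 10 windows with the highest line 1 mean held 9 from the first 5 Mb. The highest, from 4000001 to 4250000 with 32 probes, had 50.0%, 40.6%, 46.9%, 25.0% and 40.6% high probes in line 1, 34.4% and 25.0% on the Bmal1-/- arrays, and 15.6% and 21.9% in line 2. CT34 was the lowest array of line 1 there.

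The window from 5750001 to 6000000 had 30.6%, 36.1%, 30.6%, 44.4% and 44.4% in line 1, 25.0% and 38.9% in Bmal1-/- and 25.0% on both line 2 arrays. It is 1 of the 3 windows with at least 15% on every array, with those from 4000001 and 5250001; 0.117% of windows off chromosome 7 met that rule. The window from 5250001 to 5500000 had 51.9%, 40.7%, 33.3%, 29.6% and 18.5% in line 1 from CT22 to CT46, a spread of 12.5 (SD, n = 5), and 22.2% and 40.7% in Bmal1-/-. With 27 probes, 1 probe is worth several percent in it. The other 6 of the first 5 Mb start at 4750001, 5500001, 6000001, 6250001, 7000001 and 7250001, with line 1 means from 29.4% to 32.1%.

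The raised stretch ended sharply. From 7250001 to 7500000 the line 1 mean was 29.4% ± 7.2, in the next window it was 8.6% ± 5.2, and from 8250001 to 8500000 it was 2.1% ± 2.0 (SD, n = 5 each), below the background. It rose again to 28.9% ± 5.3 in the single window from 8750001, where Bmal1-/- had 26.3% at both times and line 2 had 10.5% at both times. A further rise from 10000001 to 11000000 had 19.6%, 18.95%, 17.6%, 15.03% and 17.6% in line 1, 13.1% and 18.3% on the Bmal1-/- arrays and 9.15% and 7.19% in line 2. The 250 kb windows within it reached 21.0% ± 3.8 at most, from 10750001.

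**Figure D3:**
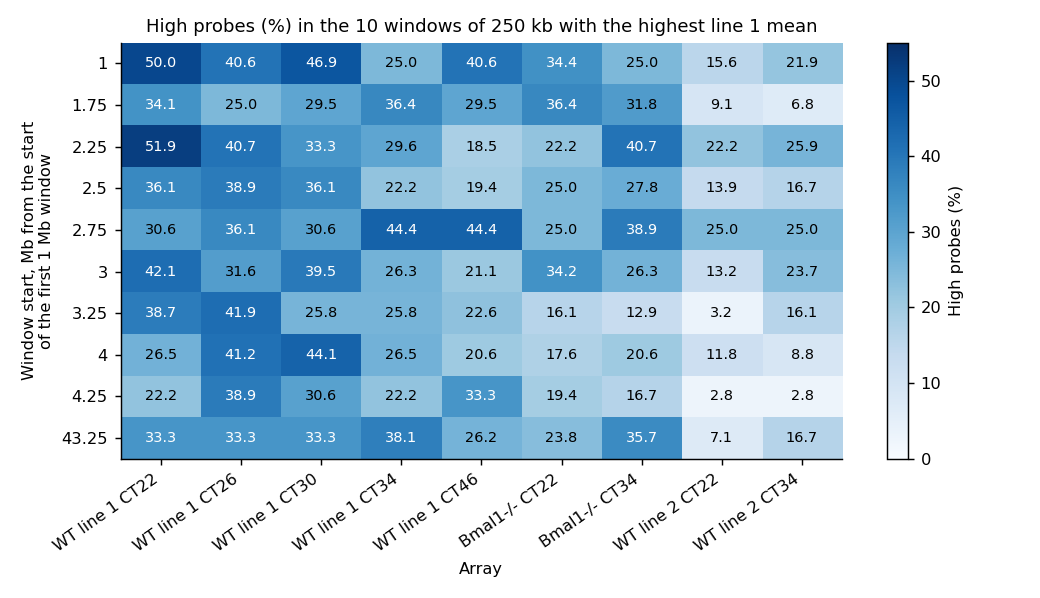
Share of high probes (percent, printed in each cell) on the 9 arrays in the 10 windows of 250 kb with the highest line 1 mean, ordered along the chromosome by their start in Mb from the start of the first 1 Mb window. The line 1 columns chose the windows; 9 of the 10 lie within the first 5 Mb, and the darkest cells are 51.9% and 50.0% at line 1 CT22.

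Beyond the first 11 Mb, 1 later peak reached the level of the start. The window from 46000001 to 47000000 had 25.6%, 30.8%, 24.4%, 26.3% and 24.4% high probes in line 1, 20.5% and 28.2% on the Bmal1-/- arrays, and 8.97% and 10.9% in line 2. Its line 1 mean of 26.3% ± 2.64 (SD, n = 5) ranked 5th of the 2399 windows off chromosome 7. The neighbours from 45000001 and 47000001 had 14.5% ± 1.46 and 16.0% ± 3.55. Within the peak, the 250 kb windows from 46000001 and 46250001 had 27.7% ± 6.9 and 32.9% ± 4.3. The peak was flanked by an abrupt fall: from 48000001 to 53000000 the share was 2.55% ± 0.62 in line 1 and 2.67% ± 0.34 in Bmal1-/-, under the share off chromosome 7, and 4.31% ± 0.26 in line 2. The bounds of this stretch and of the next ones were set after the values were seen.

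Smaller rises lay from 36000001 to 38000000, with 12.8% ± 1.55 in line 1 and 13.1% ± 0.21 in Bmal1-/-, and from 53000001 to the end, with 9.79% ± 0.62 and 9.62% ± 0.35. In line 2 they were 6.16% ± 1.24 and 5.75% ± 0.10. Single windows of 250 kb that passed 15% on all 5 line 1 arrays outside the peaks start at 36500001, with 15.6% to 17.8%, and at 43750001, with 16.3% to 25.6%. The longest stretch, from 11000001 to 45000000, held 59.5% of the probes and had 6.13% ± 0.44 high probes in line 1, 6.03% ± 0.31 in Bmal1-/- and 4.99% ± 0.17 in line 2. Without the first 5 Mb and the stretch from 45000001 to 48000000, the 8137 probes left had 6.37% to 7.10% high probes on the line 1 arrays, still above the 4.97% to 5.00% off chromosome 7 on each of them.

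The lowest 1 Mb windows of line 1 lay together, from 13000001, 14000001 and 15000001. They had 1.30% ± 1.36, 1.74% ± 1.18 and 1.49% ± 0.66 high probes (SD, n = 5). At 13000001 no probe of 123 was high at CT30 and CT46. The Bmal1-/- arrays had 1.63% to 3.26% in these 3 windows and line 2 had 0.81% to 4.02%. High and low windows thus alternated over a few Mb. Both kinds were chosen on the line 1 arrays, so their recurrence over those arrays is no separate result.

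Single probes recurred less than windows did. Of the 9246 probes, 2619 (28.3%) were high on at least 1 line 1 array and 326 (3.53%) on at least 3, while 1.42% of the probes off chromosome 7 were high on at least 3. In the first 5 Mb 120 of 657 (18.3%) were high on at least 3, and in the remainder 206 (2.40%). On all 5 line 1 arrays 59 probes were high, or 0.638%, against 0.245% of the probes off chromosome 7. Of the 59, 47 were also high on both Bmal1-/- arrays and 5 on both line 2 arrays. For 838 such probes off chromosomes 7 and 19 those shares were 81.0% and 3.82%, against 79.7% and 8.47% on chromosome 19. Every array carries the same probes, so a probe that reads high for reasons of its sequence would also recur. This was not tested.

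High probes had high neighbours more often at the start, where more of all probes were high. After a high probe in the first 5 Mb, the next probe was also high in 28.6% ± 4.36 of cases in line 1, 23.9% ± 8.36 in Bmal1-/- and 14.8% ± 1.42 in line 2. Of all probes there, 25.2%, 20.5% and 11.2% were high. In the remainder the next probe was high in 12.0% ± 1.77, 9.94% ± 0.78 and 5.75% ± 1.19, against 7.44%, 7.15% and 5.34% of all probes. Off chromosomes 7 and 19 it was high in 8.61% ± 0.60, 7.41% ± 1.14 and 5.55% ± 0.09. Relative to the share of all probes, the excess of high neighbours in line 1 and Bmal1-/- was smaller at the start than in the remainder. In line 2 it was larger. Still, most probes high on at least 3 line 1 arrays stood alone: they formed 274 runs, of which 235 were 1 probe long and 9 held 3 probes or more. Of these 9, 6 lay in the first 5 Mb and 2 in the peak near 46 Mb. In the first 5 Mb 18.3% of all probes were high on at least 3 line 1 arrays, against 2.40% in the remainder.

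The longest run, 5 probes from 4198015 to 4226842, had mean log2 ratios of 3.12, 1.95, 2.46, -0.02 and 2.22 in line 1 at CT22, 26, 30, 34 and 46. At CT34 none of its probes was high, and at CT22 all 5 were. It had 1.26 and 1.23 in Bmal1-/-, and -0.06 and 0.62 in line 2. The run of 4 probes from 5463130 to 5478627 had 2.31, 2.97, 2.58, 2.27 and 1.49 in line 1, 2.31 and 3.44 on the Bmal1-/- arrays, and 0.02 and 0.13 in line 2. The next 3 by length lie from 7024323 to 7038564, from 3554998 to 3576063 and from 10649808 to 10666793. Their line 1 means were 1.99 ± 0.26, 1.94 ± 1.13 and 2.17 ± 0.83 (SD, n = 5), and their line 2 means were 0.04, 0.20 and 0.07. The runs were chosen on the line 1 arrays, so their lower line 2 values are no comparison of the lines.

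The high probes were spread over many windows. Between 43 and 50 of the 231 windows of 250 kb held 50% of the high probes in line 1, 52 and 46 did in Bmal1-/-, and 60 and 55 in line 2. The flatter profile of line 2 went with its narrower range of ratios. The profile of shares over 59 windows of 1 Mb was alike between arrays: the median r of 10 pairs within line 1 was 0.913, that of 10 pairs of line 1 with Bmal1-/- was 0.917, and that of 10 pairs of line 1 with line 2 was 0.697. Without the first 5 Mb, over 54 windows, they were 0.851, 0.883 and 0.533. These windows share probes and arrays, so r is a description.

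Line 2, the independent WT culture, passed 15% at the start but not at the later peak, where its share was nevertheless raised. At 1 Mb, 1 window of chromosome 19 had at least 15% on both line 2 arrays, against 0.25% off chromosome 7, and at 250 kb 3 of 231 did, against 0.521%. All of them lay in the first 5 Mb. The window from 46000001, with 8.97% and 10.9%, stayed under 15% on both but above the first window of the start, with 6.87% on both, and the stretch from 45000001 to 48000000 had 8.19% ± 1.25 against 5.19% ± 0.12 in the rest of the remainder (SD, n = 2). Serum, mating and the narrow range of ratios all differ between line 2 and the other arrays and cannot be told apart.

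The comparison of genotypes asked whether cells without Bmal1 keep these contacts. At CT22 and CT34, chromosome 19 held 8.10% high probes on average in Bmal1-/- and 8.56% in line 1, a difference of -0.46 percentage points that was -0.96 at CT22 and 0.04 at CT34. In the first 5 Mb the means were 20.5% and 24.2%, a difference of -3.73 that was -6.39 at CT22 and -1.07 at CT34, where the line 1 array that resembles Bmal1-/- is the reference. In the remainder the difference was -0.21. Without line 1 at CT34 the difference was -5.40 in the first 5 Mb and -0.85 on the chromosome. Here both Bmal1-/- times stand against line 1 at CT22 alone, so the times are not matched. There is 1 array per line and time, so these differences have no test. With only the top 2.5% of probes off chromosome 7 as the standard for high, the difference in the first 5 Mb was -0.53.

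Of the 6 windows of 1 Mb that line 1 defined, 4 had at least 15% on both Bmal1-/- arrays as well, those from 4000001, 5000001, 6000001 and 46000001. Off chromosome 7, 0.834% of windows had at least 15% on all 5 line 1 and both Bmal1-/- arrays. By their own count, 4 windows of 1 Mb on chromosome 19 passed on both Bmal1-/- arrays, against 1.38% off chromosome 7. At 250 kb 22 windows did, against 2.12%, and 14 passed on the line 1 and Bmal1-/- arrays together, against 0.766%. The 22 had 10 in the first 5 Mb, where line 1 had 12.

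Against both WT lines together the sign was the opposite one. In limma, with circadian time as a term and 6 arrays, the share of high probes on chromosome 19 was 0.94 percentage points higher in Bmal1-/- (adjusted p = 0.837). On the log2 scale the mean ratio of the whole chromosome was higher in Bmal1-/- than in WT by 0.26 (SE 0.10, 95% interval 0.06 to 0.46), which did not pass (adjusted p = 0.120 over 20 chromosomes). The WT side of this value holds line 2 with its narrow ratios. Against line 1 alone the difference was 0.154 (adjusted p = 0.119, limma). Without line 1 at CT34 it was 0.294 (adjusted p = 0.351, limma), with line 1 at CT22 and both line 2 arrays as WT. There is no term for line, so line 2 weighs more there and in the window counts below that leave out a line 1 array. Against line 1 without CT34, with no term for time, the difference was 0.159. In the windows of 250 kb 0 of 231 on chromosome 19 passed an adjusted p of 0.05, and 0% of 9902 windows did in all. At an unadjusted p under 0.05, 52 of the 231 (22.5%) were higher in Bmal1-/- and 0 lower, against 18.3% of all windows higher. That count of 52 ran from 17, without Bmal1-/- at CT34, over 30, without line 2 at CT22, to 99, without line 1 at CT22, and it was 57 without line 1 at CT34 and 35 against line 1 alone. The median difference was 0.23 on chromosome 19 and 0.14 over all windows, and 0.15 and 0.08 against line 1 alone. The SD over all probes was higher on Bmal1-/- at CT34 (1.10) than on any other array, while that of Bmal1-/- at CT22 (0.920) lay within the range of line 1. Its part in these differences was not tested. After quantile normalization between arrays, the difference of the whole chromosome was 0.04 (adjusted p = 0.244, limma) and the median over its windows was 0.02.

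The 3 windows of 250 kb with the smallest p lay away from the peaks. From 41250001 to 41500000 the mean ratio was 0.54 and 0.63 in Bmal1-/- at CT22 and CT34, 0.07 and 0.17 in line 1 and 0.07 and -0.02 in line 2, a difference of 0.51 (SE 0.08). From 59000001 to 59250000 it was 0.53 and 0.48 in Bmal1-/-, 0.17 and 0.13 in line 1 and 0.11 and 0.08 in line 2, a difference of 0.38 (SE 0.06). From 20250001 to 20500000 it was 0.45 and 0.46, then -0.09 and 0.14, then 0.00 and -0.01, a difference of 0.44 (SE 0.08). In each of the 3 the Bmal1-/- arrays lay above all 4 WT arrays of the comparison, and each had an adjusted p of 0.240 in limma. In the window from 5000001 the fitted difference was 0.62 (SE 0.43) and from 46000001 it was 0.78 (SE 0.37), with adjusted p of 0.324 and 0.233 in limma.

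With all 5 line 1 arrays against both Bmal1-/- arrays and no term for time, an alternative added after the data were seen at 1 Mb, 8 of the 59 windows of chromosome 19 passed in limma, all higher in Bmal1-/-, against 9.46% of 2536 windows. They start at 16000001, 20000001, 22000001, 28000001, 30000001, 54000001, 56000001 and 57000001, all outside the first 5 Mb and the peak near 46 Mb. The smallest adjusted p, 0.026, was that of the window from 16000001, with 0.20 in line 1 and 0.48 in Bmal1-/-. With each array divided by its SD off chromosome 7, 4 passed, against 5.56% of all windows, and after quantile normalization 0 passed, against 0.986%. After the latter 9 of the 59 (15.3%) had an unadjusted p under 0.05, against 432 of all 2536 windows (17.03%), and 7 of the 9 were higher in Bmal1-/-. Without line 1 at CT34, and on values neither scaled nor quantile normalized, 4 of the 59 passed, against 4.34% of all windows. All these fits hold 1 line per genotype and take its times as replicates. Their p-values therefore measure no spread between lines of a genotype.

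The comparison of times asked whether the contacts differ between CT22 and CT34. In WT the mean log2 ratio of chromosome 19 differed by -0.01 (SE 0.19, 95% interval -0.39 to 0.37, adjusted p = 1.00, limma with 4 arrays). None of the 231 windows of 250 kb passed in limma. The count with an unadjusted p under 0.05 was also 0, while 0.0202% of all windows reached that. This fit has no term for line, so the gap between the lines enters its residual spread. A lack of passing windows in it therefore does not show that the times are alike. With line as a replicate block the difference of the chromosome was again -0.01 (SE 0.0033, adjusted p = 0.0973, limma). In the blocked fit 0 of its windows passed, and 4 of the 231 (1.73%) had an unadjusted p under 0.05 in limma, against 2.61% of all windows. Without line 1 at CT34 and with no term for line, the difference was -0.11, which holds the gap between the lines. It set line 2 at CT34 (0.0459) against line 1 (0.268) and line 2 (0.0457) at CT22. The smallest p on chromosome 19 was that of the window from 21750001 to 22000000, with means of 0.18 at CT22 and -0.05 at CT34 in line 1 and of 0.05 and -0.09 in line 2 (adjusted p = 1.00, limma). Those from 50500001 and 40750001 followed, with differences of -0.16 (SE 0.07) and 0.15 (SE 0.07).

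The shares of high probes moved in opposite ways in the lines. From CT22 to CT34 the share in the first 5 Mb changed by -3.35 percentage points in line 1, 2.59 in line 2 and 1.98 in Bmal1-/-. On the whole chromosome the changes were -0.78, 0.42 and 0.23. Without line 1 at CT34, line 1 gives no such change. Over the 5 times of line 1 the share in the first 5 Mb was 28.0% at most, at CT26, and 22.5% at least, at CT34, while CT22 and CT46, which share a phase of the 24 h cycle, had 25.9% and 23.7%.

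The interaction of genotype and time was tested over 6 arrays. Each time of Bmal1-/- had 1 array, so the residual spread in this test came only from the gap between the WT lines. The test measures no spread of Bmal1-/-, and a lack of passing windows does not show that an interaction is absent. None of the 231 windows passed (0% of all windows did), and 8 had an unadjusted p under 0.05 in limma, or 3.46%, against 2.26% of all windows. With line 1 at CT34 left out, 0 passed in limma and 2 had an unadjusted p under 0.05 (0.866%), against 1.04% of all windows. The smallest p was again in the window from 21750001, which changed by -0.18 from CT22 to CT34 in WT and by 0.48 in Bmal1-/-, a difference of 0.67 (SE 0.14, adjusted p = 0.995, limma). Those from 34750001 and 50500001 followed, with 0.42 (SE 0.12) and 0.45 (SE 0.13).

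A 24 h rhythm was tested in limma by a cosine and a sine over the 7 WT arrays with line as a term. Of the 231 windows 0 passed, as did 0% of all windows, and 10 (4.33%) had an unadjusted p under 0.05, against 5.31% of all windows. The count was again 0 in limma without line 1 at CT34, with 8 (3.46%) at an unadjusted p under 0.05, against 3.25% of all windows. The smallest p was that of the window from 44250001 to 44500000, with 0.70, 0.31, 0.27, 0.79 and 0.73 in line 1 at CT22, 26, 30, 34 and 46 and 0.24 and 0.09 in line 2, which gave a fitted amplitude of 0.51 peaking at 16.1 h (adjusted p = 0.856, limma). No array was taken near that phase. The window from 38000001 to 38250000 had 0.15, 0.45, 0.56, 0.20 and -0.03 in line 1, which gave 0.44 for the amplitude and 4.41 h for the peak, and 0.01 on both line 2 arrays. The window from 45500001 to 45750000, beside the later peak, had 0.59, 0.30, 0.65, 0.98 and 0.53 and an amplitude of 0.37. CT22 and CT46 of line 1 differed by 0.18 in the window from 38000001, against a fitted amplitude of 0.44.

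Chromosome 19 is among the gene-dense autosomes. By the RefSeq count in GRCm38.p6 it has 705 protein-coding genes, or 12.1 per Mb of the span that its probes cover, the 2nd highest of 18 autosomes without chromosome 7, after chromosome 11 with 13.5. Over these 18, gene density and the share of high probes had r = 0.70 in line 1 (rho = 0.531), r = 0.669 in Bmal1-/- (rho = 0.422) and r = 0.859 in line 2 (rho = 0.804). Without chromosome 19 the values of r were 0.618, 0.576 and 0.827. A line through the other 17 gives 6.601% for chromosome 19 in line 1, 6.19% in Bmal1-/- and 5.53% in line 2, where 8.70%, 8.10% and 5.76% were measured. Chromosomes share the arrays and are no replicates, so these correlations are descriptions.

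**Figure D4:**
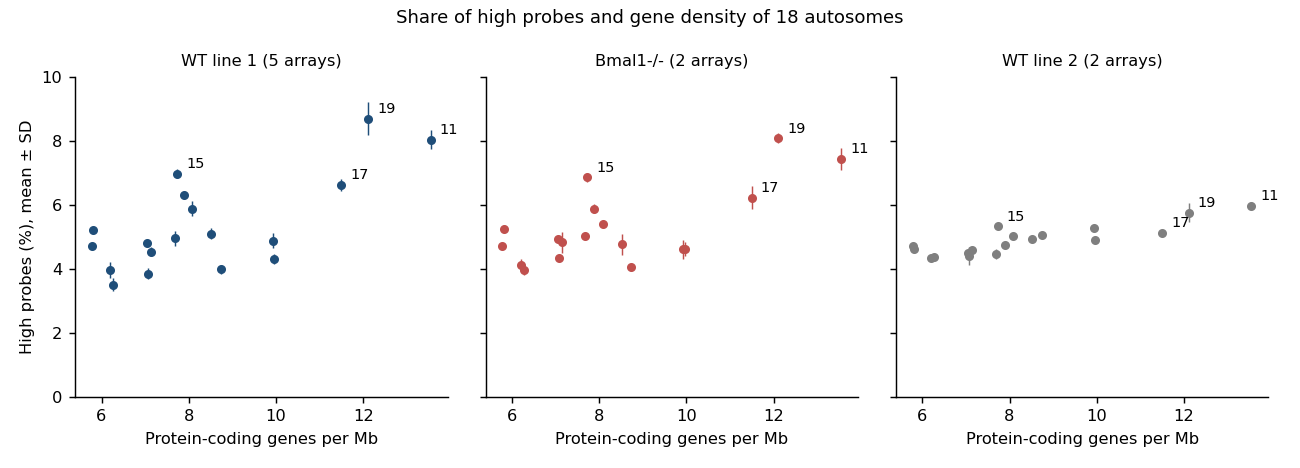
Share of high probes (percent, mean with SD over the arrays of each line) against protein-coding genes per Mb for 18 autosomes without chromosome 7, with chromosomes 11, 15, 17 and 19 labelled. Chromosome 19, at 12.1 genes per Mb, is the highest point in line 1 (8.70%) and Bmal1-/- (8.10%) and second to chromosome 11 in line 2.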

How the data were processed

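All 9 samples have 1 NimbleGen array each, read in both colours: 4C DNA in Cy5 against genomic DNA cut with HindIII and Csp6I in Cy3, per the labels' protocols. The deposited values are ratios per probe on a log2 scale, written by NimbleScan and shifted by each array's Tukey biweight mean, per the file headers. The log base is NimbleScan's convention and is not written in the files. No source used here names the genome build, a background correction or a filter. No dye swap was used, and the number of arrays limits the precision.

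Here each array was centred on its median. Windows of 250 kb and 1 Mb with at least 20 probes entered limma 3.58.1 under R 4.3.3 (lmFit, eBayes, two-sided, Benjamini-Hochberg over all windows or chromosomes at 0.05). P-values measure the spread between these arrays. Scripts were tested on simulated data. Other steps used Python 3.11.15, numpy 2.4.6, pandas 2.3.3 and scipy 1.17.1. The members and lists were chosen with earlier results of these data known. Named windows are all 1 Mb windows with at least 15% high probes on the 5 line 1 arrays, the 10 highest 250 kb and 3 lowest 1 Mb windows by line 1 mean, the 3 smallest p per comparison, and the 5 longest runs of probes high on at least 3 line 1 arrays. Replicate numbers stand for cell lines and pair WT CT22 with WT CT34: line differences at both times had r = 0.767 over the 231 windows of chromosome 19. A fit with a replicate block for line was among the alternatives.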

Additional observations from a re-analysis of the deposited data

Results flagged for a closer look

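The CT34 minus CT22 change of the share of high probes had opposite signs in the WT lines, with 1 array per line and time, so the difference between the lines was not tested. On chromosome 19 as a whole it was -0.78 percentage points in line 1 and 0.42 in line 2. In the first 5 Mb it was -3.35 in line 1 and 2.59 in line 2, and in the remainder -0.58 and 0.26. Of the 6 named windows of 1 Mb, 3 had opposite signs. In 2 the lines moved the same way (-4.58 and -1.96 from 10000001, 0.64 and 1.92 from 46000001, line 1 first), and the first window changed by -1.53 in line 1 and 0 in line 2. Of the 3, the one from 4000001 changed by -2.68 in line 1 and 0.67 in line 2. The window from 5000001 changed by -9.02 in line 1 and 6.02 in line 2. The window from 6000001 changed by -8.18 in line 1 and 8.18 in line 2. Line 1 at CT34 is the array that correlated most closely with the Bmal1-/- arrays over single probes, and its part in these changes was not tested.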

How the results depend on the processing

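Of 182 recomputed values over 14 results, 141 counted as unchanged. Shares, their ratios and their differences did so when they moved by less than the spread between arrays. Differences of the chromosome in limma did so when they kept their direction and their side of the threshold. Counts of windows did so when they were equal or of similar size, and many limma counts were 0 before and after. The exceptions follow, with the cause not tested except where fewer or more probes count as high by construction. With the 90th percentile as the threshold, the line 1 share on chromosome 19 was 15.4%, the first 5 Mb over the remainder was 2.94, the first 5 Mb held 18.4% of the high probes, 17 windows of 1 Mb and 53 of 250 kb had 15% on all 5 line 1 arrays, and Bmal1-/- minus line 1 turned to 0.46 points on the chromosome. With the top 2.5% these were 4.37%, 3.65, 21.8%, 1, 1 and -0.016, and the Bmal1-/- difference in the first 5 Mb was -0.53. With the 99th percentile they were 1.80%, 4.03, 23.5%, 0, 0 and 0.19, and -0.38 in the first 5 Mb. With the 95th percentile over all chromosomes, the share was 6.30%, the windows were 3 and 6, and the Bmal1-/- difference in the first 5 Mb was -1.45.

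The first 10 Mb over the remainder gave 2.40 and held 29.5% of the high probes, and the first 3 Mb held 13.8%. A limit of 10% gave 14 windows of 1 Mb and 40 of 250 kb, and one of 20% gave 11 of 250 kb. At the 99th percentile with a limit of 3%, chosen after seeing the data, 9 windows of 250 kb passed. With values as deposited, WT CT34 minus CT22 of the chromosome was 0.0017. With limma's trend and robust options 8 of 231 windows (3.46%) differed between genotypes, against 337 of 9902 (3.40%) in all, and 1 in the interaction, against 5 in all. With all 5 line 1 arrays and no term for time, Bmal1-/- minus line 1 of the chromosome was 0.16 (adjusted p = 0.000565, limma). In that fit 18 of 20 chromosomes passed with a median of 0.11, and 8 windows of 1 Mb passed, or 4 after scaling. Without line 1 at CT34 the difference of the chromosome was 0.159 (adjusted p = 0.0042, limma), with 17 of 20 chromosomes and 4 windows passing. Each genotype is 1 line in these fits and its times serve as replicates. Their p-values therefore measure no spread between lines of a genotype.

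Leaving out 1 array at a time gave 8.57% to 8.84% for the share, 3.33 to 3.43 for the ratio, 20.3% to 20.8% for the high probes in the first 5 Mb, and 6 to 7 and 19 to 22 windows. WT CT34 minus CT22 of the chromosome ran from -0.119 to 0.103 on the log2 scale, where it was positive without line 1 at CT22 or line 2 at CT34. With an array gone and no term for line, each of these log2 values holds the gap between the lines. Their range and signs therefore do not measure the effect of time. In share the change from CT22 to CT34 ran from -0.78, without either line 2 array, to 0.42, without line 1 at CT22 or CT34. These 2 shares are the changes within line 1 and within line 2. Bmal1-/- minus WT ran from 0.185 to 0.337 on the log2 scale. Bmal1-/- minus line 1 ran from -5.40 to -2.05 in the first 5 Mb and from -0.85 to -0.07 on the chromosome. With 1 array left out, the times of the sides no longer match. With line as a replicate block, WT CT34 minus CT22 of the chromosome was -0.0083 (adjusted p = 0.0973, limma), and 0 of its windows passed. With 1 array per line and time, differences between single arrays have no test.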
